A study of Homo sapiens with 16 samples.

Results

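The genes described here encode the enzymes that make serine from glucose and pass its carbon to folate. The set holds 10 of the 33937 genes in the deposited count table, taken by symbol, with earlier results of these data known: *PHGDH*, *PSAT1* and *PSPH* of serine synthesis, *SHMT1* and *SHMT2*, which move a carbon from serine to tetrahydrofolate, and the folate enzymes *MTHFD1*, *MTHFD2*, *MTHFD1L*, *MTHFD2L* and *ALDH1L2*. All 10 passed the filter on low counts in every comparison. The study asked what the histone N-terminal acetyltransferase NAA40 does in metabolism, using HCT116, an established human colon cancer line, and RNA-seq of 16 libraries. The cells carried a doxycycline-inducible short hairpin, either scramble (SCR) or against *NAA40* (NAA40-KD), and were kept for 96 h with doxycycline at 1 µg/ml (+dox) or without it (-dox). Each construct and doxycycline state makes a group, named here as in NAA40-KD (+dox), and the 4 groups hold 4 libraries each. Every group therefore carried a hairpin construct, the labels name no *NAA40* hairpin while the study's legend for its RNA-seq comparison names the line NAA40-KD2, and whether a line was 1 clone or a pool is not given in the sources used here.

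Serine synthesis branches from glycolysis. PHGDH oxidises 3-phosphoglycerate, PSAT1 transfers an amino group to the product and PSPH removes the phosphate. Serine hydroxymethyltransferase then splits serine into glycine and a folate-bound carbon, in the cytosol (SHMT1) or in mitochondria (SHMT2). In mitochondria MTHFD2 or MTHFD2L oxidises that carbon, MTHFD1L releases it as formate and ALDH1L2 can burn it to carbon dioxide, while cytosolic MTHFD1 takes up formate for purine and thymidylate synthesis. Tumour cells often express the mitochondrial arm strongly, and several of these genes are known targets of ATF4, the transcription factor of the amino acid and stress response.

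The libraries held 11065606 to 13855486 assigned reads. Levels are CPM, the reads of a gene scaled to a common library total, after TMM normalization, which scales each library by the bulk of its genes, and in bulk RNA fewer cells expressing a gene and less RNA per cell cannot be told apart. *NAA40* (chr11:63938959-63957328, GRCh38) did not follow the labels. It stood at 31.6, 29.3, 28.7 and 31.8 CPM in the libraries labelled NAA40-KD (+dox), at 26.2, 28.3, 26.3 and 28.2 in SCR (+dox), at 12.5, 11.5, 9.32 and 13.4 in those labelled NAA40-KD (-dox), and at 34.7, 25.9, 29.1 and 28.7 in SCR (-dox). Only the libraries labelled NAA40-KD (-dox) were low in *NAA40*, and the submitters' short names for the doxycycline state can be read in either direction, so each direction below is that of the label. NAA40-KD (-dox) replicate 4 stood apart from its group: its log2 levels correlated with the other 3 at 0.920 to 0.925, against 0.983 or more for every other pair of replicates. It held the highest summed epithelial marker level of all libraries, 12061 CPM against 5726 to 6782 CPM in the other libraries of its group. That sum was led by *KRT8* and *KRT19*, at 4983 and 3870 CPM, and the markers were split. *KRT8*, *KRT18*, *KRT19*, *CLDN4* and *CLDN7* had the highest level of their group there, whereas *EPCAM* and *CDH1* had the lowest. The part of these differences in the enzymes was not tested. The tests of the enzymes that use this library are given with and without it, whereas group means, ratios and ranks include it. Of the epithelial markers, *EPCAM*, *CDH1*, *KRT8*, *KRT18*, *KRT19*, *CLDN4* and *CLDN7* were expressed throughout while *VIL1* had at most 3 counts, and of 8 markers of other cell types only *COL1A1* exceeded 6 counts, at 57.7 to 189 CPM with its top in that same library.

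**Figure D1:**
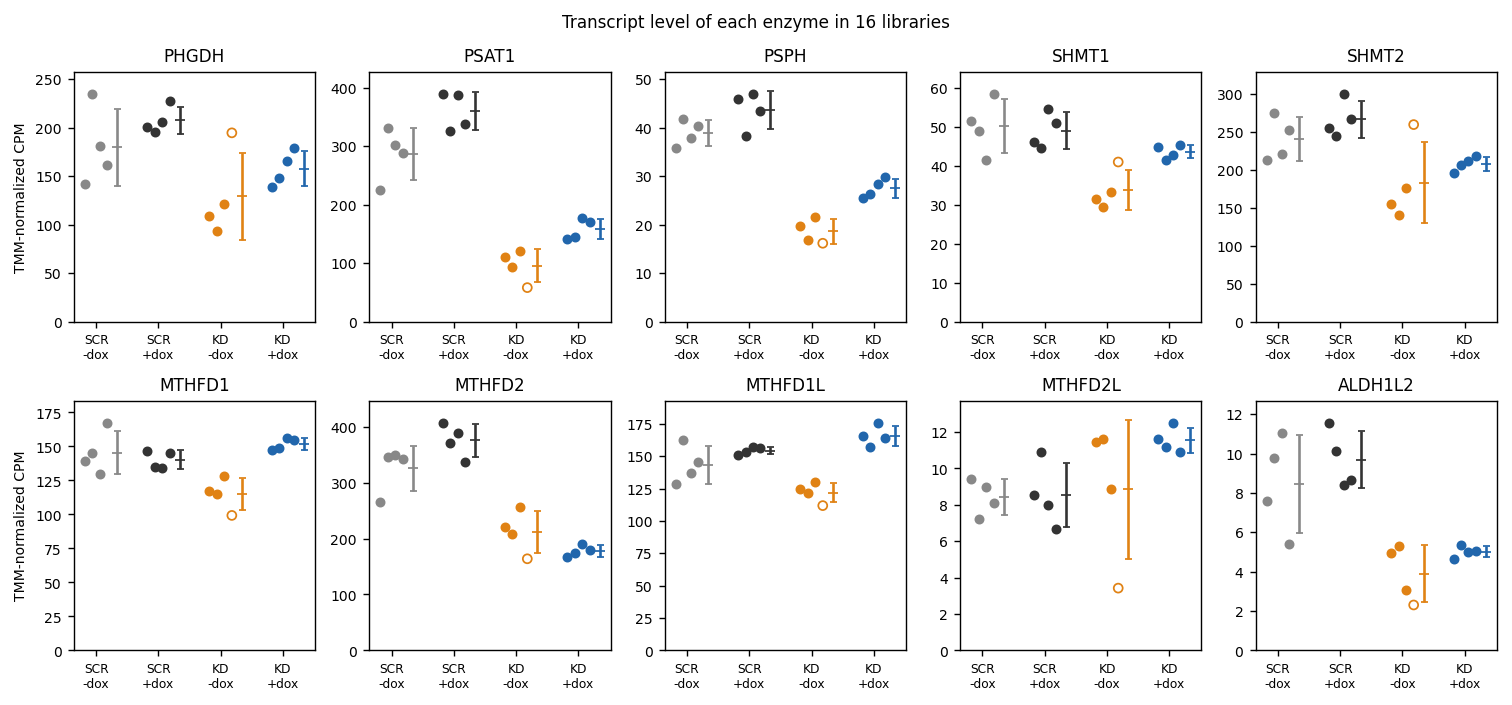
Level of each of the 10 enzymes (y axis, TMM-normalized CPM, linear from 0) in the 4 groups (x axis, KD for NAA40-KD). Each point is a library, the horizontal tick with its bar is the group mean ± SD (n = 4), and the open circle is NAA40-KD (-dox) replicate 4. For *PSAT1*, *PSPH*, *MTHFD2* and *ALDH1L2*, every NAA40-KD library lies below every SCR library. For *ALDH1L2* the margin is narrow, 5.33 against 5.42 CPM. The means of *MTHFD1* and *MTHFD1L* lie below both SCR means in NAA40-KD (-dox) only. Every enzyme has its lowest library in NAA40-KD (-dox).

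Under the (+dox) label, 6 of the 10 enzymes were lower in NAA40-KD than in SCR and 1 was higher. Over all 13869 genes tested, 24.5% were called, 13.7% lower and 10.9% higher (edgeR's quasi-likelihood test, two-sided, Benjamini-Hochberg adjusted p under 0.05). The median log2 fold change of the 10 enzymes was -0.38, against -0.0042 for all genes. *PSAT1* and *MTHFD2* also passed a log2 fold change of 1, which 2.15% of genes did. The libraries of the groups did not overlap for 8 of the 10, against 27.1% of all genes. With all 16 libraries in 1 fit, *PHGDH*, *SHMT2* and *MTHFD2L* were no longer called, and the share called of all genes was 6.71%. In this comparison *NAA40* itself differed by a log2 fold change of 0.15 (adjusted p = 0.281, edgeR), so the lower enzyme levels stood beside *NAA40* levels that were not lower.

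Under the (-dox) label, where *NAA40* fell by 1.31 on the log2 scale (edgeR, adjusted p = 0.00521, SE 0.18) and by 1.40 without NAA40-KD (-dox) replicate 4 (adjusted p = 2.53e-06), 2 of the 10, *PSAT1* and *PSPH*, were called, both lower and both past the fold threshold. Of 13903 genes tested, 6.42% were called, 3.54% lower, and 3.47% were called with the fold threshold. Without NAA40-KD (-dox) replicate 4 the count was 8 of 10, all lower, while the share called of all genes rose to 36.5%, with 19.4% lower. The median log2 fold change of the 10 with all libraries was -0.48, against 0.04 for all genes, and without replicate 4 it was -0.63, against -0.0059. Groups did not overlap for 6 of the 10, against 21.7% of all genes, and without replicate 4 for 9 of the 10, against 41.6%. DESeq2 on the same libraries also called *SHMT1*, *MTHFD2* and *ALDH1L2* lower, and called 13.8% of all genes.

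**Figure D2:**
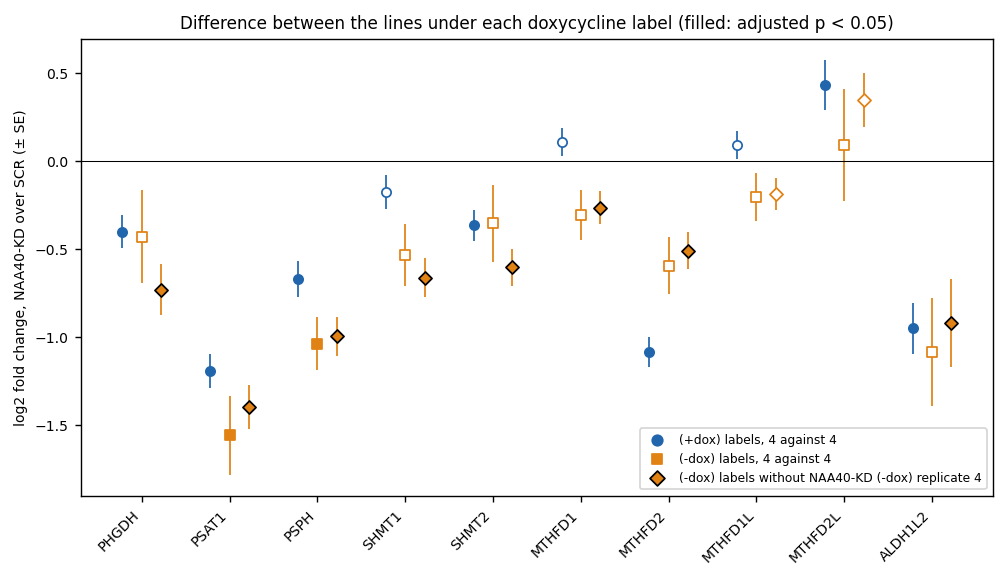
Log2 fold change of NAA40-KD over SCR for each enzyme (y axis, ± SE derived from the edgeR test) under the (+dox) label, the (-dox) label, and the (-dox) label without NAA40-KD (-dox) replicate 4. Filled symbols have an adjusted p under 0.05. *PSAT1* has the lowest value in all 3 sets, from -1.56 to -1.19, and the values of *MTHFD2L* are above 0 in all 3.

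Promoter sequence is shown for the 2 genes whose levels were lowest relative to SCR (+dox), since they moved in the same direction as the ATF4 targets described further on. Sequences are from RefSeq (GRCh38.p14), whose table held windows of 250 bases before to 50 after each start for 7 of the 10 genes, in 11 windows. Capitals mark CCAAT boxes, the pentamer bound by the general factor NF-Y. The *PSAT1* stretch is the 250 bases before its start (chr9:78296875-78297124, plus strand), the *MTHFD2* stretch the first 197 bases of its window (chr2:74198365-74198561, plus strand), and the *MTHFD1L* stretch is 30 bases (chr6:150866346-150866375, plus strand) with capitals on the match to TGATGNAA described below.
PSAT1: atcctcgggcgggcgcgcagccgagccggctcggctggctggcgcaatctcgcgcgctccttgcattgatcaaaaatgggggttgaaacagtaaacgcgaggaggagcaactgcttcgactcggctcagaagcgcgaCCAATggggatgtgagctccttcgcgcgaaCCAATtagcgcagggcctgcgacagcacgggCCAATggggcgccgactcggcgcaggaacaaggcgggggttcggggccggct
MTHFD2: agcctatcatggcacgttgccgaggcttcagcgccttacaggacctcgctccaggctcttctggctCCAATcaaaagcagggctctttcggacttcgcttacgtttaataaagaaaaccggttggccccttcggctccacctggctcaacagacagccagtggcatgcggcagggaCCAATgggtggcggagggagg
MTHFD1L: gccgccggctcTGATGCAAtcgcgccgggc

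These motifs were picked after the sequences had been seen and were searched on both strands. CCAAT occurred in the windows of 6 of the 7 genes, with 3 matches in *PSAT1*, 2 each in *MTHFD2*, *SHMT1* and *MTHFD1*, 1 each in *PHGDH* and *MTHFD1L* and none in *MTHFD2L*. It occurs for 39.7% of the 27305 genes with a window and in 34.6% of all 35116 windows. TGATGNAA, the core of the element bound by ATF4 with a C/EBP partner, matched in *MTHFD1L* alone, against 4.46% of genes and 3.62% of windows. *MTHFD1L* had several windows, so more of its sequence was searched than for a gene with a single window. The match was the same stretch in overlapping windows, at positions 24, -90 and -129 relative to their starts. At position 24 it lies after the start, inside the transcript. CACGTG, the E-box bound by MYC and related factors, matched in *MTHFD1* and *MTHFD1L*, against 8.77% of genes and 7.26% of windows.

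Of serine synthesis, *PHGDH* (chr1:119648411-119744226, plus strand) encodes the first enzyme. It stood at 139, 148, 166 and 179 CPM in NAA40-KD (+dox) replicates 1 to 4 and at 201, 196, 206 and 228 CPM in SCR (+dox). All 4 NAA40-KD (+dox) libraries lay below all 4 of SCR (+dox), and *PHGDH* fell by 0.40 on the log2 scale (edgeR, adjusted p = 0.00512, SE 0.09). The libraries labelled NAA40-KD (-dox) read 109, 93.7, 121 and 195 CPM, and SCR (-dox) 142, 234, 181 and 161 CPM. Replicate 4 lay inside the SCR (-dox) range and the other 3 below it. The log2 fold change of *PHGDH* was -0.43 (edgeR, adjusted p = 0.358, SE 0.26) with all libraries and -0.73 (adjusted p = 0.00181, SE 0.15) without it.

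*PSAT1* (chr9:78297143-78330093, plus strand), the aminotransferase, differed most. Its level was 142, 144, 177 and 170 CPM in NAA40-KD (+dox) and 389, 325, 388 and 338 CPM in SCR (+dox), which makes the NAA40-KD (+dox) mean 44.0% of the SCR (+dox) mean. It fell by 1.19 on the log2 scale (edgeR, adjusted p = 1.16e-07, SE 0.10). In NAA40-KD (-dox) it was 111, 92.7, 121 and 58.0 CPM, against 225, 331, 301 and 288 CPM in SCR (-dox). The groups were far apart under both labels, and replicate 4 was the lowest library of all 16. *PSAT1* fell by 1.56 on the log2 scale there (edgeR, adjusted p = 0.00634, SE 0.22), and by 1.40 without that library (adjusted p = 1.37e-06, SE 0.12).

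*PSPH* (chr7:56011051-56051604, minus strand), the phosphatase of the last step, read 25.6, 26.3, 28.4 and 29.9 CPM in NAA40-KD (+dox) against 46.0, 38.2, 46.9 and 43.5 CPM in SCR (+dox). In NAA40-KD (-dox) it read 19.8, 16.8, 21.7 and 16.2 CPM, against 35.8, 41.9, 37.9 and 40.3 CPM in SCR (-dox). Every NAA40-KD library was below every SCR library, whatever the label. The log2 fold change was -0.67 (edgeR, adjusted p = 0.000112, SE 0.10) under the (+dox) label and -1.04 (adjusted p = 0.00616, SE 0.15) under the (-dox) label, where it was -0.996 (adjusted p = 7.68e-06, SE 0.11) without replicate 4. The pseudogene *PSPHP1* held 22 to 87 counts per library, against 203 to 630 for *PSPH*, so reads of the pair may be split.

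*SHMT1* (chr17:18327860-18363563, minus strand), the cytosolic hydroxymethyltransferase, did not pass under either label. Its log2 fold change was -0.18 (edgeR, adjusted p = 0.182, SE 0.09) under (+dox), with NAA40-KD libraries at 41.6 to 45.3 CPM and SCR libraries at 44.4 to 54.6 CPM. Under (-dox) its libraries read 31.4, 29.5, 33.3 and 40.9 CPM in NAA40-KD and 51.4, 49.0, 41.5 and 58.3 CPM in SCR. The groups were separate by a narrow margin, with a log2 fold change of -0.53 (edgeR, adjusted p = 0.103, SE 0.18), and -0.66 (adjusted p = 0.000299, SE 0.11) without replicate 4. Exons of *SHMT1* overlap those of *SMCR8* on the opposite strand (360 to 610 counts), and whether reads were counted by strand is not stated in the sources used here.

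*SHMT2* (chr12:57229327-57234935, plus strand), its mitochondrial counterpart, stood at 196, 206, 211 and 218 CPM in NAA40-KD (+dox) and 255, 244, 299.5 and 267 CPM in SCR (+dox). The groups did not overlap, and it fell by 0.37 on the log2 scale (edgeR, adjusted p = 0.00489, SE 0.09). Under the (-dox) label the NAA40-KD libraries read 155, 140.1, 176 and 259.7 CPM and the SCR libraries 213, 275, 220.3 and 252 CPM. As with *PHGDH*, replicate 4 alone reached the SCR range: the log2 fold change was -0.35 (edgeR, adjusted p = 0.361, SE 0.22) with it and -0.61 (adjusted p = 0.000371, SE 0.10) without it.

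Cytosolic *MTHFD1* (chr14:64388031-64463457, plus strand) read 147, 149, 156 and 155 CPM in NAA40-KD (+dox) and 147, 135, 134 and 146 CPM in SCR (+dox), a log2 fold change of 0.11 (edgeR, adjusted p = 0.358, SE 0.08). Under (-dox) it read 117, 115, 128 and 99.3 CPM in NAA40-KD and 139, 145, 130.0 and 167 CPM in SCR. All 4 NAA40-KD (-dox) libraries were below SCR (-dox), although the log2 fold change of -0.31 (SE 0.14) missed the threshold (adjusted p = 0.224, edgeR). Without replicate 4 it was -0.26 (adjusted p = 0.0343, SE 0.09). Its exons overlap *ZBTB25* on the opposite strand (155 to 339 counts). *ZBTB25* was higher under (+dox) by 0.35 on the log2 scale (adjusted p = 0.0427, edgeR), the direction of the uncalled *MTHFD1* value there. Under (-dox) its log2 fold change was 0.03 (adjusted p = 0.955, edgeR). Its part in the *MTHFD1* level was not tested.

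*MTHFD2* (chr2:74198562-74217565, plus strand), the mitochondrial dehydrogenase that is high in many tumours, was the other enzyme to pass the fold threshold under (+dox). Its level was 166, 174, 191 and 180.1 CPM in NAA40-KD (+dox) and 406, 371, 389 and 337 CPM in SCR (+dox). The groups were far apart, and it fell by 1.09 on the log2 scale (edgeR, adjusted p = 8.07e-08, SE 0.08). Under (-dox) it stood at 219.8, 207, 256 and 164 CPM in NAA40-KD and 266, 346, 349 and 342 CPM in SCR. The highest NAA40-KD library was just below the lowest SCR library, and the log2 fold change of -0.60 (SE 0.16) missed the threshold (adjusted p = 0.0584, edgeR), whereas it was -0.51 (adjusted p = 0.00159, SE 0.11) without replicate 4.

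*MTHFD2L* (chr4:74114174-74303099, plus strand), the less abundant isozyme, was the member that rose under (+dox): 11.6, 11.2, 12.5 and 10.9 CPM in NAA40-KD (+dox) against 8.54, 10.9, 7.97 and 6.68 CPM in SCR (+dox). The lowest NAA40-KD library and the highest SCR library nearly met, and the log2 fold change was 0.43 (edgeR, adjusted p = 0.0328, SE 0.14). That call was lost when any 1 library was left out other than SCR (+dox) replicate 2 (adjusted p up to 0.101 over those 7 fits). Under (-dox) the NAA40-KD libraries spread from 3.42 CPM in replicate 4 to 11.6 CPM and the log2 fold change was 0.09 (adjusted p = 0.892, SE 0.32), or 0.35 (adjusted p = 0.0851, SE 0.15) without replicate 4.

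*MTHFD1L* (chr6:150865549-151101887, plus strand), the formate-releasing enzyme, was called under neither label. Its log2 fold change was 0.09 (edgeR, adjusted p = 0.416, SE 0.08) under (+dox) and -0.21 (adjusted p = 0.395, SE 0.14) under (-dox), where it was -0.19 (adjusted p = 0.118, SE 0.09) without replicate 4. Its group means were 166 ± 7.58 CPM in NAA40-KD (+dox), 154 ± 2.77 in SCR (+dox), 122 ± 7.57 in NAA40-KD (-dox) and 143 ± 14.6 in SCR (-dox) (SD, n = 4).

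*ALDH1L2* (chr12:105019784-105084577, minus strand), the formyl-folate dehydrogenase, was sparse, with 29 to 146 counts per library. It read 4.66, 5.33, 5.02 and 5.03 CPM in NAA40-KD (+dox) and 11.5, 10.1, 8.41 and 8.67 CPM in SCR (+dox). The ranges were well separated, and it fell by 0.95 on the log2 scale (edgeR, adjusted p = 0.000135, SE 0.14). Under (-dox) it read 4.96, 5.29, 3.08 and 2.31 CPM in NAA40-KD and 7.62, 9.80, 11.03 and 5.42 CPM in SCR. The groups nearly touched, with a log2 fold change of -1.08 (edgeR, adjusted p = 0.0671, SE 0.31), and -0.92 (adjusted p = 0.0103, SE 0.25) without replicate 4. *NOPCHAP1*, whose exons overlap *ALDH1L2* on the other strand (232 to 427 counts), was higher under (+dox) by 0.46 on the log2 scale (adjusted p = 0.00611, edgeR) while *ALDH1L2* was lower.

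Inside NAA40-KD (-dox), the enzymes did not move together in replicate 4. Relative to the mean of the other 3 libraries, *PHGDH* was at 1.81 times and *SHMT2* at 1.65 times, while *PSAT1* was at 0.537, *ALDH1L2* at 0.520 and *MTHFD2L* at 0.321. *PSAT1* over *PHGDH*, a ratio of CPM, was 0.298 in that library, against a highest value of 1.02 in its group and group means of 1.00 ± 0.05 in NAA40-KD (+dox), 1.61 ± 0.16 in SCR (-dox) and 1.74 ± 0.21 in SCR (+dox) (SD, n = 4).

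**Figure D3:**
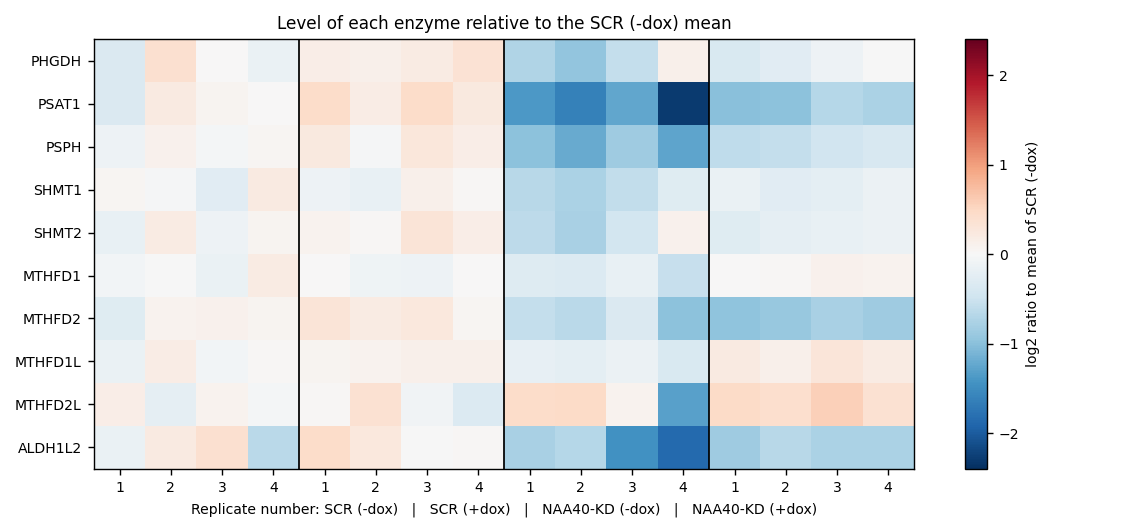
Heat map of the level of each enzyme (rows) in each library (columns, numbered by replicate and split by group), as log2 of the ratio to the SCR (-dox) mean, red above and blue below. NAA40-KD (-dox) replicate 4 has the darkest cell of the map, in *PSAT1*, and is near 0 in *PHGDH* and *SHMT2*, unlike replicates 1 to 3.

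Comparing the mitochondrial and cytosolic isozymes as ratios of CPM, *MTHFD2* over *MTHFD1* was 1.17 ± 0.04 in NAA40-KD (+dox), 1.83 ± 0.14 in NAA40-KD (-dox), 2.26 ± 0.35 in SCR (-dox) and 2.68 ± 0.25 in SCR (+dox) (SD, n = 4). The NAA40-KD (+dox) libraries, at 1.13 to 1.22, lay below every other library. *SHMT2* over *SHMT1* was 4.77 ± 0.27, 5.33 ± 0.71, 4.85 ± 0.72 and 5.44 ± 0.12 in the same order, with overlapping ranges in all groups but NAA40-KD (+dox) against SCR (+dox). Both are descriptions, with no test.

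Per kilobase of the principal transcript, the levels in SCR (+dox) ranked *PSAT1* at 164 ± 15.1 CPM per kb, *SHMT2* at 105 ± 9.43, *MTHFD2* at 84.4 ± 6.61, *PHGDH* at 80.3 ± 5.48, *MTHFD1* at 44.8 ± 2.18, *MTHFD1L* at 42.8 ± 0.77, *PSPH* at 20.0 ± 1.79, *SHMT1* at 19.9 ± 1.88, *MTHFD2L* at 3.71 ± 0.77 and *ALDH1L2* at 1.28 ± 0.19 (SD, n = 4). *MTHFD2* and *PHGDH*, *MTHFD1* and *MTHFD1L*, and *PSPH* and *SHMT1* did not differ beyond their spread. In NAA40-KD (+dox) *SHMT2* ranked first, at 81.9 ± 3.66 CPM per kb, ahead of *PSAT1* at 72.3 ± 8.15, and *MTHFD2* moved to rank 6. The order rests on the transcript length: on the union of all annotated exons *PHGDH*, whose union is 9217 bases against a principal transcript of 2585, moved from rank 4 to rank 5 in SCR (+dox), and *MTHFD2* ranked above *SHMT2*.

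Within the NAA40-KD line, the (+dox) and (-dox) labels differed in *PSPH*, higher by 0.55 on the log2 scale in (+dox) (edgeR, adjusted p = 0.0369, SE 0.14), and *MTHFD1L*, higher by 0.42 (adjusted p = 0.0424, SE 0.11). These are 2 of the 10, against 10.2% of 13844 genes called and 4.71% called higher. Without NAA40-KD (-dox) replicate 4, 7 were higher and 1, *MTHFD2*, lower by 0.37 on the log2 scale (adjusted p = 4.17e-05, SE 0.06), while 52.4% of all genes were called. This comparison shares its libraries with both comparisons above. Without that library *PSPH* was higher by 0.50 (edgeR, adjusted p = 0.000107) and *MTHFD1L* by 0.39 (adjusted p = 9.37e-07). Neither call was stable when single libraries were left out: the *PSPH* call was lost in 6 of the 8 fits and the *MTHFD1L* call in 7 of the 8. Their log2 fold changes moved less, from 0.496 to 0.615 for *PSPH* and from 0.394 to 0.450 for *MTHFD1L*.

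Between the SCR groups, SCR (+dox) against SCR (-dox), none of the 10 was called by edgeR, DESeq2 or limma-voom. By edgeR 0 of 13882 genes were called (0%), and at an unadjusted p under 0.05 the enzymes gave 1, *PSAT1* (log2 fold change 0.34, SE 0.12, unadjusted p = 0.0117, lowest SCR (+dox) library below the highest of SCR (-dox)), against 1.95% of all genes. The other log2 fold changes ran from -0.04 (*MTHFD1*) to 0.22 (*PHGDH*).

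Whether the difference between the lines depended on the doxycycline label was tested as an interaction over all 16 libraries, the (-dox) difference minus the (+dox) difference. None of the 10 passed with edgeR, against 9.22% of 14392 genes, and 4 did so at an unadjusted p under 0.05, as did 25% of all genes, while DESeq2 called 1, *MTHFD1*, and limma-voom none. The 4 were *PSPH* (-0.37, SE 0.17), *MTHFD1* (-0.42, SE 0.15), *MTHFD1L* (-0.31, SE 0.14) and *MTHFD2* (0.49, SE 0.18) on the log2 scale. Without NAA40-KD (-dox) replicate 4, *MTHFD2* (0.59, adjusted p = 0.0028), *SHMT1* (-0.48, adjusted p = 0.0175) and *MTHFD1* (-0.36, adjusted p = 0.0262, edgeR) were called, against 24.2% of all genes. The size of the fall in *PSAT1* was not shown to differ between labels (interaction -0.37, SE 0.25, adjusted p = 0.374).

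Genes around these enzymes moved in several ways. The counts in the lists below stand against 24.5% of all genes called under (+dox), 6.42% under (-dox) and 36.5% under (-dox) without replicate 4. Of 24 tested ATF4 targets outside the set, 19 were lower and 1 higher under (+dox), with a median log2 fold change of -0.93, and 7 were lower and 1 higher under (-dox), median -0.56 (19 lower and 2 higher, median -0.69, without replicate 4). The lowest under (+dox) were *CHAC1* (-2.19, SE 0.27), a glutathione-degrading enzyme, *TRIB3* (-2.11, SE 0.12), a pseudokinase, and *SESN2* (-1.89, SE 0.13), a stress sensor. Under (-dox) the cystine transporter *SLC7A11* was lowest with all libraries (-2.29, SE 0.28, and -2.07, SE 0.14, without replicate 4). The summed level of the list was 2792 to 3040 CPM in NAA40-KD (+dox) and 4653 to 5409 CPM in SCR (+dox). Under (-dox) the groups overlapped, at 2491 to 4152 CPM in NAA40-KD and 3541 to 5268 CPM in SCR. The 4152 CPM was replicate 4, and the next NAA40-KD (-dox) library stood at 2882 CPM. A sum is led by abundant genes, and the list was split in replicate 4. *CHAC1*, *TRIB3* and *SESN2* had the highest level of their group there, at 20.2, 110 and 71.3 CPM. *SLC7A11* had its lowest, at 14.1 CPM. The part of this list in the result for the enzymes was not tested.

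Of 30 S phase and replication genes, 5 were higher and 3 lower under (+dox), median 0.08, and 19 were lower with none higher under (-dox), median -1.06 (30 lower, median -1.12, without replicate 4). Their summed level was 1233 to 1571 CPM in NAA40-KD (-dox) against at least 2281 CPM in the other groups, and its part in the (-dox) results was not tested. Of 19 tested other folate and glycine cleavage genes, 4 were higher and 3 lower under (+dox), and 1 was higher and 4 lower under (-dox) (2 higher and 9 lower without replicate 4). *SLC46A1*, a folate transporter, rose under (+dox) (log2 fold change 0.83, SE 0.14) and under (-dox) (0.95, SE 0.20, and 0.82, SE 0.15, without replicate 4). The glycine decarboxylase gene *GLDC* fell by 0.83 on the log2 scale under (+dox). Under (-dox) its log2 fold change was -0.57, not called, and -0.61, called, without replicate 4. *TYMS*, thymidylate synthase, was not called under (+dox) (0.19), and fell by 0.99 under (-dox) and by 0.98 without replicate 4. Of 16 tested genes of serine transport and use, 7 were lower under (+dox) and 3 under (-dox) (7 lower and 4 higher without replicate 4), with *SLC1A4*, a neutral amino acid transporter, lowest in both (-1.51, SE 0.11, and -1.70, SE 0.29, the latter -1.87, SE 0.25, without replicate 4). Of 7 tested epithelial markers, 2 were lower under (+dox) and 1 was higher under (-dox) (4 higher without replicate 4). *COL1A1*, the 1 marker of another cell type with enough counts to test, was called under neither label (log2 fold change -0.19 and 0.46, the latter -0.05 without replicate 4).

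**Figure D4:**
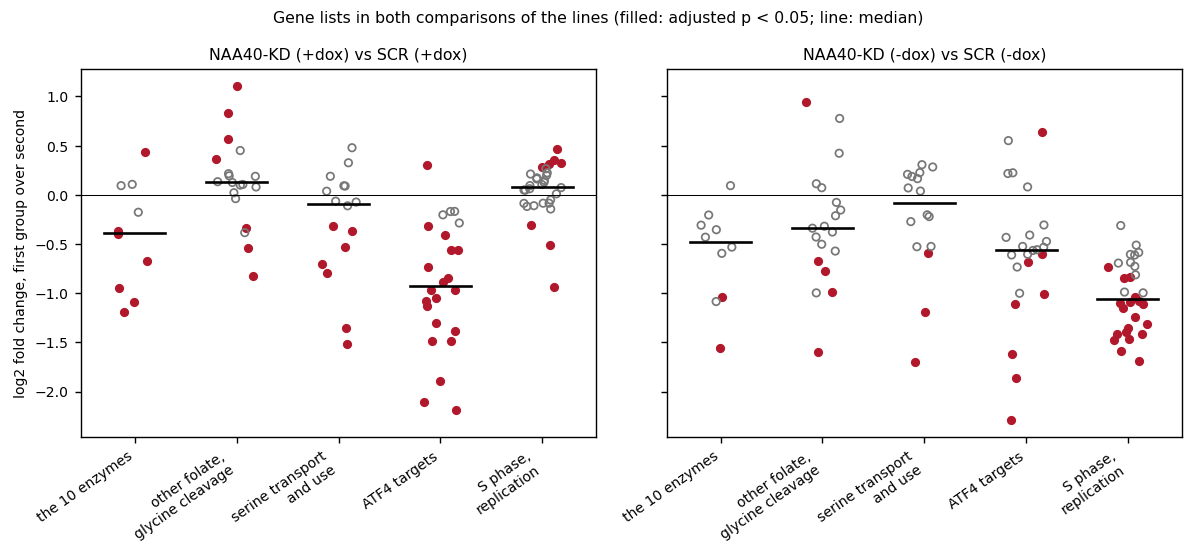
Log2 fold change of each tested gene (points, filled where the adjusted p was under 0.05) for the 10 enzymes and 4 other lists, with the median as a line, for NAA40-KD over SCR under the (+dox) label (left) and the (-dox) label (right). The ATF4 targets lie mostly below 0 in both panels, whereas the S phase and replication list lies near 0 in the left panel and below 0 in the right.

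Across the 16 libraries, the genes most like the enzymes by Pearson correlation of log2 CPM, of 11106 genes compared, were found for 4 enzymes: *PSPH*, called in 3 comparisons, *PSAT1*, called in 2, and *MTHFD2* and *ALDH1L2*, which had the lowest adjusted p of those called in 1. *PSAT1* was closest to *SLC7A11* (0.991), *GARS1* (0.987) and *PSPH* (0.983), and *PSPH* to *PSAT1* (0.983), *PRNP* (0.978) and *RTN4* (0.977). *MTHFD2* was closest to *MAP1LC3B* (0.976), *ULBP1* (0.972) and *BPNT1* (0.945), and *ALDH1L2* to *SLFN5* (0.944), *ETV5* (0.932) and *CASC19* (0.931). Without NAA40-KD (-dox) replicate 4 the same pairs gave 0.903 to 0.988 over 15 libraries, but the closest genes changed for 3 of the 4. *PSAT1* kept its 3, those of *PSPH* became *PSAT1*, *DDIT4* (0.982) and *SLC7A11* (0.979), those of *MTHFD2* became *ULBP1*, *MAP1LC3B* and *NFIL3* (0.961), and those of *ALDH1L2* became *ZNF827* (0.936), *STAT6* (0.936) and *CASC19* (0.927). These correlations are descriptions, since the libraries fall into 4 groups and share their processing.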

How the data were processed

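The authors deposited raw counts per gene: reads aligned with STAR and assigned by featureCounts, with no normalization (unit: counts, whole numbers). The methods name the mouse build mm10, the submitters' processing notes list hg38 and GRCm38, and all 33937 identifiers are human Ensembl identifiers. The methods describe stranded libraries from column-purified RNA and the labels another extraction, and whether featureCounts used strand is not stated in the sources used here. Of the identifiers, 33590 had a symbol and 33811 occurred in GENCODE release 29. All 16 count columns matched a sample, leaving 0 columns unmatched. Some genes that the study or the naming rule would name are not reported here.

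Each comparison was fitted on its 8 libraries with edgeR 4.0.16 (R 4.3.3; TMM, quasi-likelihood, robust, two-sided), keeping genes with CPM above 1 in at least 4 libraries, and the interaction on all 16. Calls had a Benjamini-Hochberg adjusted p under 0.05 over all genes tested. The SE given with an edgeR fold change was derived from the test. It is the absolute log2 fold change over the square root of the F statistic. DESeq2 1.42.0 and limma 3.58.1 (voom), other scaling and filters, a replicate block and leaving out libraries were alternatives. The members, lists and tests were chosen with earlier results of these data known. Genes named are all 10 enzymes and *NAA40*, up to 3 called genes per list and comparison with the largest fold change, and for the 4 enzymes called in most comparisons (ties by lowest adjusted p) the 3 most correlated genes with a mean of at least 5 CPM. The methods call the replicates of a group independent RNA samples and do not say whether these came from separate cultures, so p-values measure the spread between these samples, which may be technical. The scripts were tested on simulated data. At 11065606 to 13855486 counts per library, counting error matters most for *ALDH1L2*, *MTHFD2L* and *PSPH*.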

Additional observations from a re-analysis of the deposited data

Results flagged for a closer look

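The level of *MTHFD2* in SCR (-dox) replicate 1, 266 CPM, lay far from the other 3 libraries of its group at 342 to 349 CPM, and its gap over the range of the group was 0.911, above Dixon's 95% critical value for 4 samples. Among 44 groups of 4 tested (40 of them levels of the 10 enzymes) this was the 1 that exceeded it, and chance gives about 1 in 20. The difference in *NAA40* between the lines was not the same under the doxycycline labels: the (-dox) difference minus the (+dox) difference was -1.46 on the log2 scale (SE 0.18, adjusted p = 0.00022, edgeR), and -1.54 without NAA40-KD (-dox) replicate 4 (adjusted p = 4.65e-07).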

How the results depend on the processing

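Of the log2 fold changes recomputed under all alternatives, 825 kept their direction and their side of the threshold, 33 newly passed, 28 no longer passed and 27 changed sign. Of the counts of called enzymes, 7 under (+dox) became 4 with all 16 libraries in the fit (6.71% of all genes called, against 24.5%). The 2 under (-dox) became 5 with DESeq2 (13.8% of all genes called, against 6.42%), 6 with all 16 libraries in the fit (20.5%) and 7 without the libraries numbered 4 of both groups (36.8%, chosen after seeing the data), and ranged from 2 to 8 when single libraries were left out. The 2 between the NAA40-KD labels became 4 with DESeq2 (18.2%, against 10.2%) or all 16 libraries (22.3%), 0 with no filter on low counts (3.6%) and 0 to 8 when single libraries were left out, and the 0 of the interaction became 1 with DESeq2 (13.6%, against 9.22%) and 0 to 3 when single libraries were left out.

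With the replicate number as a block, the count under (-dox) was 1 (*PSAT1*; 0.59% of all genes called) and that between the NAA40-KD labels 0 (5.61%). Between the NAA40-KD labels, deviations of same-numbered samples correlated at 0.206, 0.116 and 0.237 for replicates 2, 3 and 4, each its own best match, but at 0.034 for replicate 1. Under (+dox), replicates 3 and 4 were also their own best match, at 0.069 and 0.185. No other same-numbered samples were. Outside the NAA40-KD labels the correlations ran from -0.416 to 0.185, and the numbers were not taken to pair the samples. Signs changed for *MTHFD2L* under (-dox) (-0.030 with voom, -0.012 with the replicate block, -0.060 to 0.35 when single libraries were left out), and, when single libraries were left out, between the SCR groups for *SHMT1* (-0.098 to 0.064), *MTHFD2L* (-0.12 to 0.12) and *MTHFD1* (-0.088 to 0.035), none of which was called. In the interaction the sign changed for *SHMT2* (0.00028 with DESeq2, 0.019 with CPM above 1 in every library, -0.23 to 0.11 when single libraries were left out), *PHGDH* (-0.32 to 0.12) and *ALDH1L2* (-0.31 to 0.039). The cause of these changes was not tested.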
